A study of Saccharomyces cerevisiae with 8 samples.

Results

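Stable unannotated transcripts (SUTs) are non-coding RNAs of budding yeast that accumulate in wild-type cells, and many of them run along the strand opposite to a gene. The SUTs considered here were those of the transcript annotation used for counting that overlapped, by at least 1 bp, a transcript annotated as coding (ORF-T) on the opposite strand of the same chromosome. This held for 529 of the 847 SUTs, out of 7272 annotated transcripts. They formed 601 pairs with 576 coding transcripts: 459 SUTs met 1 coding transcript, 68 met 2 and 2 met 3. For each SUT the coding transcript with the longest overlap was taken as its partner. The SUTs were 41 to 4281 bp long with a median of 881 bp, and the median overlap with the partner was 641 bp. By position, 164 lay wholly inside the partner, 157 covered its annotated end, 157 covered its annotated start and 51 covered it from end to end.

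Antisense SUTs usually arise from nucleosome-free regions, often at the end of the gene that they oppose or at the promoter of a neighbour, and are made by RNA polymerase II as capped and polyadenylated RNAs. Unlike cryptic unstable transcripts (CUTs), which the Nrd1-Nab3-Sen1 pathway terminates and the nuclear exosome removes, SUTs reach the cytoplasm to some extent and are degraded there mainly by the exonuclease Xrn1. Transcription across the promoter of a gene from its antisense strand can hinder the initiation of that gene through histone modification and nucleosome placement, with IME4 and PHO84 as well-studied yeast cases.

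A diploid hybrid between the laboratory strain S96 and the wild isolate SK1 was compared with pooled haploid spores derived from it, with replicates A and B on each side, all in YPD. Cells of the hybrid carry both mating types, and the spore pools had been selected for a single mating type and grown overnight, so that each pool is a mixture of many recombinant genotypes. Strand-specific read pairs were counted only where a polymorphism assigned them to the SK1 or the S96 allele, and the pairs counted on annotated transcripts numbered 45297678 (hybrid A), 48141742 (hybrid B), 52202725 (pool A) and 52600018 (pool B). Pools were of mating type a by their markers: 5 of 6 a-specific genes were called higher in the pools than in the hybrids, and their summed normalised counts were 534 (hybrid A) and 752 (hybrid B) against 62949 and 43494 in the pools, and none of 4 alpha-specific genes was called. All 4 tested haploid-specific genes of a list of 7 were called higher in the pools. A bulk measurement cannot separate a change in the number of cells that express a transcript from a change in RNA per cell.

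Sequencing lanes and replicate letters bear on low transcripts such as SUTs. Lanes 6 and 7 of each library agreed within counting noise over transcripts (mean chi-squared of 1.01 to 1.05 per transcript), whereas lane 8 differed from them in all 4 libraries (378 to 500 per transcript). Antisense SUTs took 1.08% to 1.97% of the counted pairs in lanes 6 and 7 and 0.657% to 1.03% in lane 8. Part of this contrast came from 1 transcript, SUT664 on chromosome XI. In lanes 6 and 7 it held 126764 (hybrid A), 30091 (hybrid B), 81376 (pool A) and 129701 (pool B) pairs. In lane 8 it held 12691, 3574, 18389 and 14165. The shares therefore do not describe the antisense SUTs as a whole. Replicate A also gave higher values than replicate B over the antisense SUTs, with a median log2 difference of 0.30 for hybrids and 0.38 for pools. Other non-coding classes had it too, with 0.46 and 0.55 over antisense CUTs and 0.31 and 0.17 over the other SUTs. Over the overlapped coding transcripts it was 0.01 and 0.00. Coordinates of the annotation on chromosome XI did not match the R64 genome: the coding span lay inside the annotated transcript for 30.6% of genes there and for 92.3% to 98.2% on the other chromosomes. The 38 antisense SUTs of chromosome XI were therefore counted in shifted windows, and they are part of the counts below: of the 49 calls for allelic difference in the hybrid, 4 (SUT227, SUT231, SUT662 and SUT665) lie there and 45 remained without that chromosome, while none of the 5 calls between pools and hybrids does.

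The sequences of 4 SUTs that the results turn on follow, from the S288c R64 reference at the coordinates of the annotation, each 5′ to 3′ on the strand of the SUT. The first is the part of SUT612 that lies upstream of BAR1 (chr9:322043-322142, minus strand), with the operator described below in capitals. In the others, capitals mark positions of the polymorphisms in the DNA files, which need not hold every difference by which read pairs were assigned. Each window of 100 bases is the one richest in such positions within the stretch opposite a coding sequence. They are chr14:705477-705576 (minus strand) opposite AGA1, chr10:125624-125723 (plus strand) opposite FAR1 and chr2:372258-372357 (plus strand) opposite TIP1.
SUT612: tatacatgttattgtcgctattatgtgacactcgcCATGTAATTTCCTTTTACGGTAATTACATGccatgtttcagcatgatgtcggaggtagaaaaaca
SUT755: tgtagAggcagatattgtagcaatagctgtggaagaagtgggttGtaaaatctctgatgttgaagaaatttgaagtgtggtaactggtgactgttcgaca
SUT204: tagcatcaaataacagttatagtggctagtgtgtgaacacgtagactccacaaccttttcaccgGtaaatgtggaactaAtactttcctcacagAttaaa
SUT016: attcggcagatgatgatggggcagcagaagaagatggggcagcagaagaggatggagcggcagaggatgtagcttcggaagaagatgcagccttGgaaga

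The capitals in SUT612 (chr9:322078-322107) match the form of an operator of the repressor alpha2 with Mcm1, searched as CATGT and ACATG with 20 bases between them, a palindrome that reads alike on both strands. This form occurred 15 times in the genome, in 2 of the 529 antisense SUTs (0.378%; the other was SUT637) and in 12 of all 7272 annotated transcripts (0.165%). SUT612 was picked for this search, so its match and its place in these counts are no test. Of the coding span of BAR1 in R64 (chr9:322342-324105, plus strand), SUT612 (chr9:321909-323477, minus strand) opposed 1136 bp or 64.4%, and it ran on beyond the operator upstream of it, although the annotated BAR1 transcript began further downstream and shared only 157 bp with the SUT. SUT612 held 1 polymorphism of the DNA files, SUT755 held 4, SUT204 held 12 and SUT016 held 10. The counts of SUT612 may therefore rest on a narrow part of its length.

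Antisense SUTs were low but widely detected. Of the 529, 526 had rows for both alleles, and 487 passed the minimum mean of 20 total counts per library for the comparison of pools with hybrids. Of the 39 that did not pass, 26 held no polymorphism of the DNA files. The same was true of 15 of the 487 that passed, so counts did not require a polymorphism of these files within the annotated SUT. Just below the minimum lay SUT771 with a mean of 17.9, and just above it SUT410 with 21.2. Normalised by the trimmed mean of M-values (TMM) and divided by length, the median level was 473 counts per kilobase, with quartiles of 165 and 1079. The median was 205 for the other SUTs, 396 for CUTs antisense to coding transcripts, 1113 for the overlapped coding transcripts and 1828 for the other coding transcripts. These levels also carry the density of polymorphisms, which was 6.24 per kb in antisense SUTs, 8.92 in the other SUTs, 5.98 in antisense CUTs and 5.52 in the overlapped coding transcripts. Counting windows were extended by 50 bp at each end but the lengths were not, which weighs more in short transcripts. Median lengths were 881, 569, 417 and 1557 bp in the same order. The levels were not tested between classes.

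**Figure D1:**
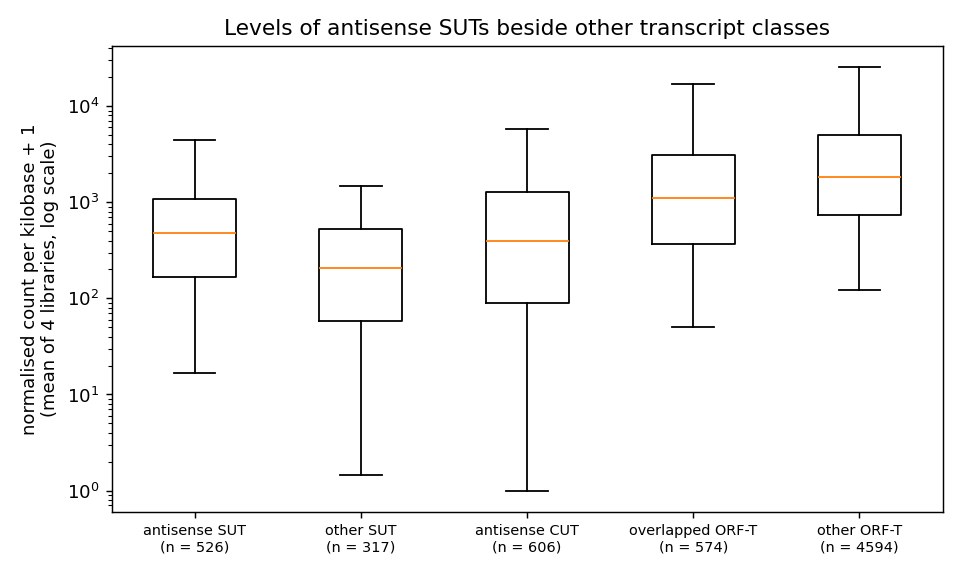
Normalised count per kilobase plus 1 (mean of the 4 libraries, log axis) of 526 antisense SUTs beside 317 other SUTs, 606 antisense CUTs, 574 overlapped and 4594 other coding transcripts; boxes span the quartiles with the median as a line, and whiskers the 5th to the 95th percentile. The median of the antisense SUTs (473) lies between that of the other SUTs (205) and that of the coding transcripts they overlap (1113).

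Within pairs, the SUT was lower than its partner per kilobase in most cases, with a median log2 ratio of −1.01 and the SUT higher in 132 of 526 pairs. The ratio was lowest for SUTs over the annotated start of the partner (median −1.35) and inside it (−1.17), and less negative for SUTs over its end (−0.71) and over its whole length (−0.59). Among 163 SUTs wholly inside a counted partner, the level per kilobase was 44.3% of the partner at the median, with quartiles of 21.9% and 74.9%, and it exceeded the partner in 32. The extended windows and the density of polymorphisms bear on these ratios as well. Levels of SUT and partner rose together across pairs (Spearman correlation of 0.55 over 526 pairs, and 0.54 over the 163 inside), which is given as a description because the pairs share libraries and, where they overlap, polymorphisms.

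By the annotation, the 6 highest antisense SUTs per kilobase lay opposite abundant transcripts of the cell wall, the ribosome and the cytoskeleton, among others. For SUT664 and SUT680, in shifted windows of chromosome XI, the gene opposed is uncertain. SUT664, on chromosome XI in a shifted window beside CWP2, which encodes a cell wall mannoprotein, had normalised counts of 158328 (hybrid A), 35820 (hybrid B), 85239 (pool A) and 142588 (pool B), most of them from lanes 6 and 7. Its value differed more between replicates than between groups. SUT744, inside the aminopeptidase gene LAP3, had 5886 and 5137 in the hybrids and 7524 and 3864 in the pools, and its level per kilobase was above that of LAP3 in each library. Counting windows were extended by 50 bp but the lengths were not, and counts depend on the polymorphisms held. These values therefore do not rank the RNA amounts of SUT744 and LAP3. SUT680, annotated inside UTH1 and also on chromosome XI, followed with a mean of 14688 counts per kilobase. Next came SUT091 over the end of the ribosomal protein gene RPL34A with 13918, SUT778 over the end of TMA46 with 13117 and SUT287 over the end of the alpha-tubulin gene TUB1 with 9825. None of the 6 was called between pools and hybrids, and only SUT287 was called for allele, towards S96 (log2 ratio −0.70, edgeR adjusted p = 0.120, but 0.13 in lane 8 alone and not called without hybrid A, at −0.80, or without hybrid B, at −0.60).

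Between hybrids and pools, few antisense SUTs were called, among them those opposite BAR1 and AGA1, which act in mating. A transcript was called where edgeR's quasi-likelihood test gave a Benjamini-Hochberg adjusted p below 0.2 together with a change of more than 1.5-fold. On the sum of both alleles, 5 of the 487 tested antisense SUTs were higher in the pools and 0 were lower. Over all 6723 tested transcripts, 1.04% were higher and 0.0446% lower by the same rule, so that the share among antisense SUTs (1.03% in either direction, against 1.09%) lay near the background. For SUTs lower in the pools, the count of 0 from edgeR compared with 3 by DESeq2.

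BAR1 encodes the secreted protease by which cells of mating type a degrade alpha-factor, and it is not expressed in diploids of both mating types. SUT612, which opposes it, had 0 counts in both hybrids, and normalised counts of 762 in pool A and 105 in pool B. Against a floor of 3 counts in a library, the mean of the pools was at least 127-fold higher, and the lower pool at least 30.8-fold higher (edgeR adjusted p = 0.0104). BAR1 itself had 45.4 and 86.2 in the hybrids and 3141 and 3506 in the pools, a log2 change of 5.65 ± 0.42 (SE, n = 2 per group, edgeR adjusted p = 1.3e-05). Sense RNA was thus low and antisense RNA at 0 in the hybrids, and both were present in the pools, but the pools, which were alike for BAR1, differed widely for SUT612. Per kilobase, SUT612 stood at 13.7% of BAR1 in pool A and at 1.70% in pool B. It was at 0 in both hybrids in lanes 6 and 7 and in lane 8 alike.

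AGA1 encodes the anchor subunit of a-agglutinin, which pheromone induces and which sits on the surface of mating cells. SUT755 (chr14:705328-705944, minus strand), which overlaps the end of AGA1 by 589 bp, had normalised counts of 236 and 202 in the hybrids and 3431 and 1090 in the pools. The groups did not overlap, and the log2 change was 3.37 ± 0.51 (SE, n = 2 per group, edgeR adjusted p = 0.00759). AGA1 rose as well, from 1807 and 2281 in the hybrids to 11584 and 9615 in the pools, by a log2 change of 2.37 ± 0.26 (edgeR adjusted p = 5.2e-04). As with BAR1, the pools were close to each other for the coding transcript and further apart for the SUT, with pool A higher.

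SUT204 (chr10:123800-126464, plus strand) entered the set by an overlap of only 21 bp with the end of SSY5, but in R64 it opposes the whole coding span of FAR1 (chr10:123836-126328, minus strand), the inhibitor that arrests the cell cycle in response to pheromone. FAR1 itself was not analysed here, and the link was noticed after the values were seen. SUT204 had normalised counts of 526 and 556 in the hybrids and 2984 and 1691 in the pools, a log2 change of 2.11 ± 0.36 (SE, n = 2 per group, edgeR adjusted p = 0.0189). SSY5, a protease of the amino acid sensor, had 4202 and 4691 in the hybrids and 4838 and 3883 in the pools and was not called (log2 change −0.03 ± 0.25, edgeR adjusted p = 0.994).

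For the other called SUTs, the partner was not called. SUT350 (chr15:31665-33257, plus strand), which shares 21 bp with the start of the cell wall gene HPF1 and otherwise runs away from it, had 519 and 446 in the hybrids and 1824 and 2481 in the pools (log2 change 2.16 ± 0.35, SE, n = 2 per group, edgeR adjusted p = 0.0113). HPF1 had 2355 and 2615 in the hybrids and 2218 and 1618 in the pools. SUT434 (chr1:31485-32749, minus strand), wholly inside the glutamate dehydrogenase gene GDH3, had 534 and 372 in the hybrids and 1373 and 1271 in the pools (log2 change 1.54 ± 0.39, edgeR adjusted p = 0.179). GDH3 had 1258 and 1301 in the hybrids and 2280 and 1875 in the pools, with a log2 change of 0.70 ± 0.30 that was not called (edgeR adjusted p = 0.572). In all 5 called SUTs, both pools lay above both hybrids, and only SUT434 lost its call under some alternatives, among them the fits without hybrid A (1.83) and without hybrid B (1.31).

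**Figure D2:**
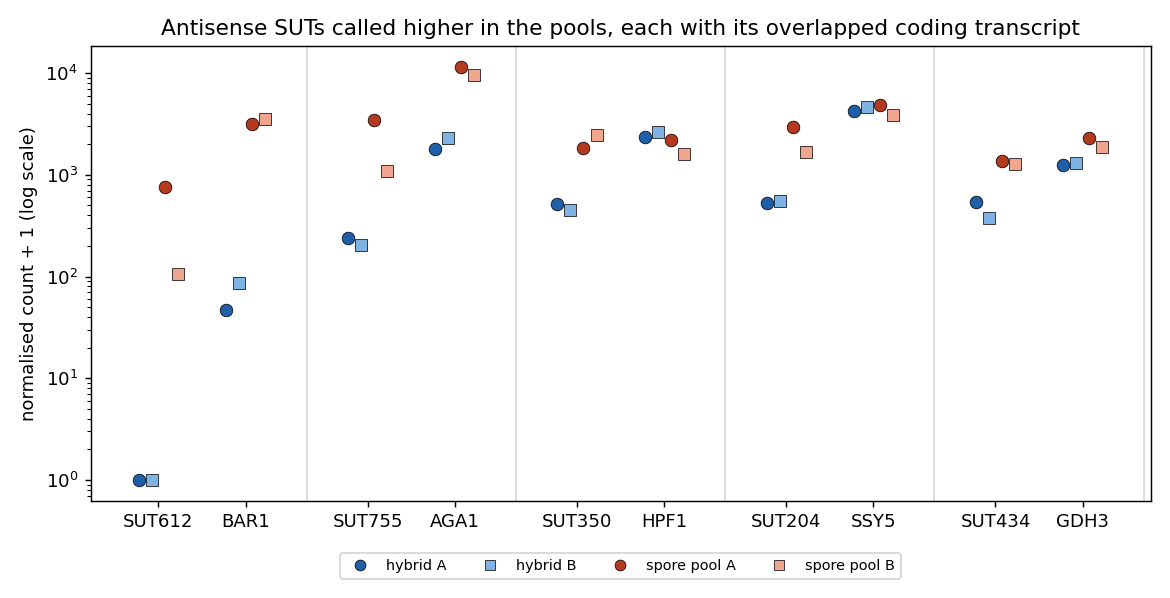
Normalised count plus 1 (log axis) in hybrids A and B (blue) and spore pools A and B (red) of the 5 antisense SUTs called higher in the pools, each followed by the coding transcript it overlaps; 1 point per library. Both pools lie above both hybrids for all 5 SUTs and for BAR1, AGA1 and GDH3, and not for HPF1 or SSY5; SUT612 is at 0 in both hybrids.

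Over all tested antisense SUTs the median log2 change was 0.14, against 0.07 for the overlapped coding transcripts and 0.01 for all transcripts. This is below the median difference between replicates A and B given above, and it was 0.33, 0.01, −0.09 and 0.28 without hybrid A, hybrid B, pool A and pool B. Both pools lay above both hybrids for 90 antisense SUTs (18.5%, against 18.3% of all tested transcripts) and below them for 49 (10.1%, against 18.3%). The count of 5 calls also moved with single libraries: 35 were called without pool A, of which 23 were lower in the pools, and 50 without pool B, of which 40 were higher.

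The relation of the change of a SUT to that of its partner was loose. In 481 pairs with both members tested, SUT and partner were both called in 2 pairs, BAR1 and AGA1, each time in the same direction, and in 0 pairs in opposite directions. No antisense SUT and no overlapped coding transcript was called lower in the pools. Pairs called in opposite directions therefore could not occur, and these counts say nothing about opposition. Called SUTs stood opposite an uncalled partner in 3 pairs, and called partners opposite an uncalled SUT in 8. All 8 of these coding transcripts were higher in the pools. AXL1, the haploid-specific protease that matures a-factor, rose by 1.63 ± 0.31 on the log2 scale (SE, n = 2 per group, edgeR adjusted p = 0.0424), and the SUT over its start, SUT836, had 448 and 829 normalised counts in the hybrids and 1468 and 523 in the pools. The remaining 7 were the cell wall genes TIP1, TIR1 and YGP1, the cytochrome oxidase gene COX5B, and ICS2, YLR042C and YHR087W, with log2 changes of 1.17 to 2.64. The SUTs of these 7 had changes between −0.11 (SUT508, at the end of TIR1) and 1.72 (SUT020, over the start of ICS2), none of them called. Across the 481 pairs the changes had a Pearson correlation of 0.32 (Spearman 0.22), and of 0.12 (Spearman 0.21) without BAR1 and AGA1. For the difference between replicates A and B, the Pearson correlation was −0.01 among hybrids and 0.00 among pools. That difference was taken between single libraries on log2 normalised counts plus 1. It is another measure than the edgeR changes and no matched control for them. These values describe pairs that share the 4 libraries and are no test.

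**Figure D3:**
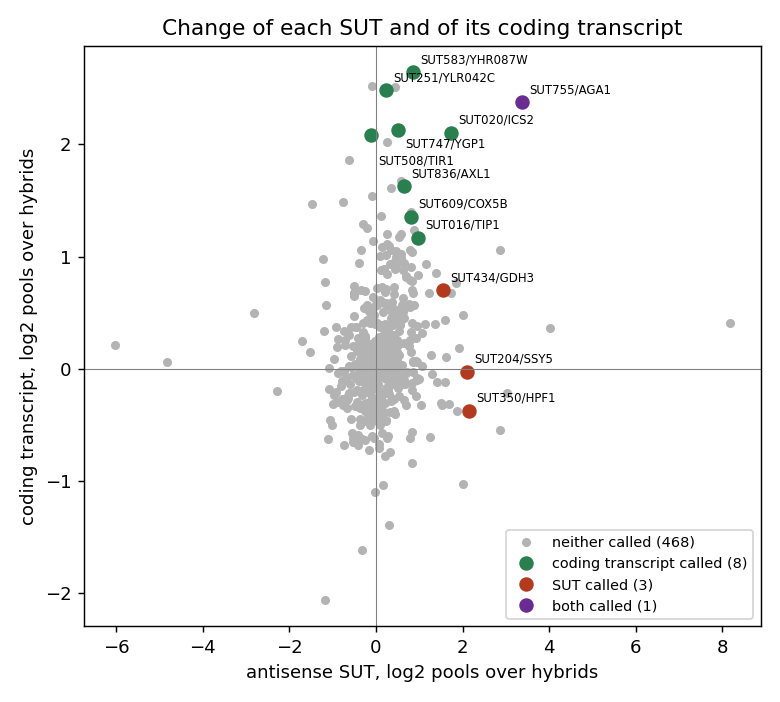
Log2 change from hybrids to pools of each antisense SUT (horizontal axis) and of the coding transcript it overlaps (vertical axis), 1 point per pair, coloured by which of them was called; SUT612 and BAR1 are left out because the SUT is at 0 in the hybrids. AGA1 with SUT755 is called on both axes, 8 coding transcripts are called without their SUT, and 3 SUTs without their coding transcript.

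Allelic differences in the hybrid (cis effects, given as log2 of SK1 over S96) were more frequent. With the same thresholds, 49 of 486 tested antisense SUTs were called (10.1%, against 11.6% of all 6706 tested transcripts), 16 with the SK1 allele higher (4.53% of all transcripts) and 33 with the S96 allele higher (7.02% of all transcripts). The share was 15.6% among the other SUTs, 5.19% among antisense CUTs and 12.7% among the overlapped coding transcripts, and these shares were not tested against each other. Antisense SUTs over the end of the partner held 21 of the calls in 147 tested, those over its start 13 in 144, those over the whole partner 8 in 51 and those inside it 7 in 144. Of the 49, 37 had a mean of at least 50 corrected counts per allele and library and one direction in all 4 libraries, 11 towards SK1 and 26 towards S96. Without hybrid B, 31 were called in place of 49, of which 20 were shared.

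SUM1 encodes a repressor of middle sporulation genes, and SUT066 lies over its end (chr4:1080797-1081045, plus strand). Among the 26 SUTs that passed the mean of 50 and the direction in all 4 libraries, it had the largest effect towards S96. Corrected counts of its SK1 and S96 alleles were 7.95 and 366 in hybrid A, 7.45 and 383 in hybrid B, 19.97 and 484 in pool A and 9.65 and 1000.4 in pool B. The SK1 allele was thus nearly absent in every library, and the cis effect was −5.58 ± 0.81 (SE, edgeR adjusted p = 1.7e-04), while SUM1 had an effect of 0.17 ± 0.15 that was not called. SUT552 over the start of SCM4 had 9.08 and 124 in hybrid A, 0 and 165 in hybrid B, 60.0 and 260 in pool A and 108 and 230 in pool B, with a cis effect of −5.49 ± 1.53 (edgeR adjusted p = 0.0345). SCM4 itself leaned to SK1, with an effect of 0.53 ± 0.23 (edgeR adjusted p = 0.196). It was not called only because the change was below 1.5-fold. SUT502 over the end of RMD6 had a log2 allele ratio of −3.21 and −6.48 in the hybrids and −5.12 and −4.48 in the pools, at no more than 250 counts of either allele in any library. Of 15 alternatives, SUT552 lost its call under 4 and SUT502 under 5. Among them, without hybrid B neither was called (−3.75 for SUT552 and −3.34 for SUT502), nor was SUT502 without pool A (−5.08).

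At TIP1 and RER2 the SUT and the gene leaned to the same allele. TIP1 encodes a cell wall mannoprotein that cold shock induces, and SUT016 (chr2:371271-373727, plus strand) covers it whole. Corrected SK1 and S96 counts of SUT016 were 347 and 1303 in hybrid A, 94.7 and 1325 in hybrid B, 515 and 3098 in pool A and 287.7 and 1733 in pool B. Its cis effect was −2.82 ± 0.39 (SE, edgeR adjusted p = 1.0e-04), and that of TIP1 was −4.28 ± 0.25 (edgeR adjusted p = 3.8e-09). SUT009, over the start of RER2, which encodes a cis-prenyltransferase of dolichol synthesis, had 81.7 and 672 in hybrid A, 133 and 700 in hybrid B, 115 and 826 in pool A and 82.8 and 492 in pool B. The effects were −2.71 ± 0.50 for SUT009 (edgeR adjusted p = 0.00177) and −1.96 ± 0.21 for RER2 (edgeR adjusted p = 7.6e-06). At both loci every library had more of the S96 allele on both strands. Per kilobase, SUT016 stood at 10.9% to 17.9% of TIP1 and SUT009 at 14.8% to 23.5% of RER2 over the libraries. Carry-over of reads between strands was not measured.

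Towards SK1, SUT275 over the end of CDC42, a gene of cell polarity, had corrected SK1 and S96 counts of 888 and 307 in hybrid A, 1289 and 156 in hybrid B, 831 and 257 in pool A and 1277 and 569 in pool B. Its cis effect was 2.28 ± 0.42 (SE, edgeR adjusted p = 0.00174), whereas CDC42 was balanced at −0.05 ± 0.14 (edgeR adjusted p = 0.899). SUT275 lost its call under 2 of 15 alternatives, limma (2.28) and the shallow DNA of pool B used for pool B (2.29). SUT343, sharing 29 bp with the end of YNR061C, and SUT767, sharing 53 bp with the end of MSN1, which encodes a transcriptional activator, had effects of 2.06 ± 0.65 and 1.71 ± 0.53 (edgeR adjusted p = 0.0637 and 0.0585). Neither partner was called, and each of these SUTs lost its call under 4 of 15 alternatives, among them without hybrid B (1.91 and 1.41).

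SUT137 over the start of YGR201C and SUT350 at the start of HPF1 leaned to the allele that their gene had less of. SUT137 had a cis effect of 2.56 ± 0.85 (SE, edgeR adjusted p = 0.0776) and YGR201C one of −1.45 ± 0.40 (edgeR adjusted p = 0.0324). In all 4 libraries the SK1 allele was the higher one on the antisense strand and the lower one on the sense strand. SUT137 lost its call under 5 of 15 alternatives, among them without hybrid B (1.59), lane 8 alone (1.68) and the replicate block (1.87). SUT350 had log2 allele ratios of 3.10 (hybrid A), 0.39 (hybrid B), 1.11 (pool A) and 1.08 (pool B), with a cis effect of 1.71 ± 0.54 (edgeR adjusted p = 0.0627). HPF1 had ratios of −5.23 and −2.45 in the hybrids and −1.23 and −2.24 in the pools, with an effect of −3.76 ± 0.53 (edgeR adjusted p = 1.2e-04). The effect of SUT350 rested on hybrid A, since it was 0.39 without that library and no longer called.

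**Figure D4:**
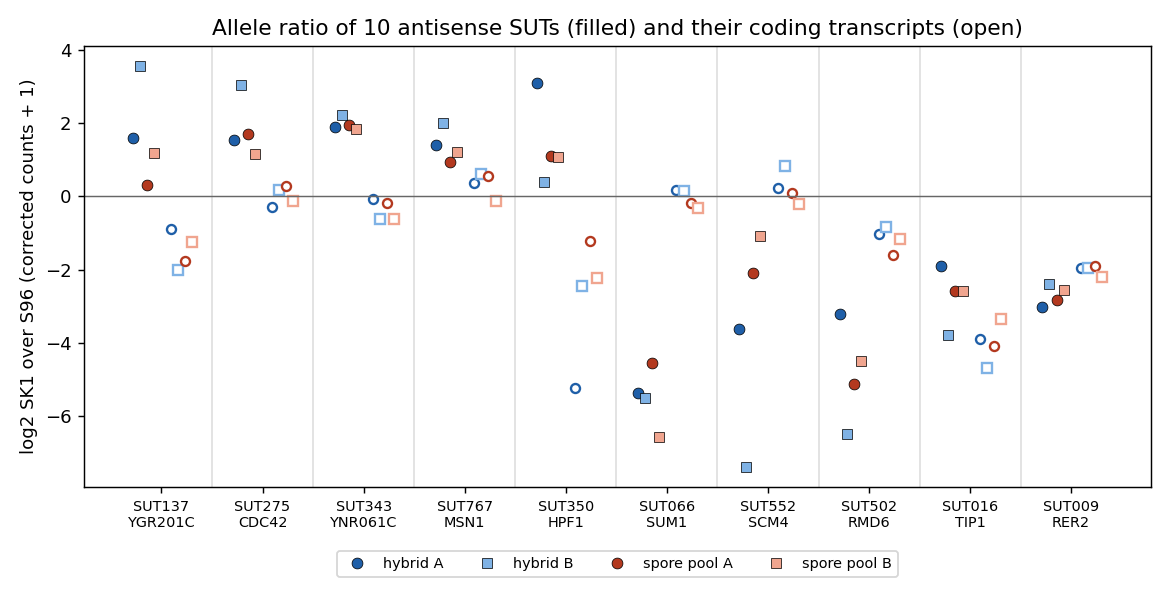
Log2 ratio of SK1 over S96 corrected counts (1 added to each) in the 4 libraries for the 10 antisense SUTs with the largest called cis effects, 5 in each direction, among those with a mean of at least 50 and one direction in all 4 libraries (filled points) and for their coding transcripts (open points); blue points are hybrids and red points spore pools. TIP1 and RER2 lie on the same side of 0 as their SUT in all libraries, YGR201C and HPF1 on the opposite side, and CDC42 and SUM1 scatter around 0. SCM4 leans to SK1, with a cis effect of 0.53 that was not called.

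Across 480 pairs with both members tested, the cis effects of SUT and partner had the same sign in 269 (56.0%). Both were called for cis in 13 pairs, 10 towards the same allele and 3 towards opposite alleles (the third was SUT665 over the start of MBR1, on chromosome XI). Besides TIP1 and RER2, the 10 included AGA1, where SUT755 had a cis effect of −1.97 ± 0.39 (SE, edgeR adjusted p = 0.0030, but −0.66 and not called in lanes 6 and 7 alone) and AGA1 one of −1.65 ± 0.18 (edgeR adjusted p = 6.0e-06), FET4, QDR2, TIR3, YNL134C, PTI1, YCL049C and the joint transcript of YJR115W and YJR116W. In 35 pairs the SUT was called alone and in 50 the partner alone. The Pearson correlation of the cis effects was 0.40 over 50 pairs with the partner covered whole and 0.34 over 144 with the SUT inside it, against 0.05 over 141 with the start covered and 0.03 over 145 with the end covered. SUT and partner share the polymorphisms that lie in their overlap.

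No antisense SUT was called for a change of the allele ratio from hybrid to pool (local trans effect) in 486 tested, against 0.149% of all 6706 transcripts (0.0596% towards SK1 and 0.0895% towards S96). In edgeR, 14 antisense SUTs (2.88%) had an unadjusted p under 0.05, against 5.88% of all transcripts, and DESeq2 called 3. SUT755 had log2 allele ratios of −1.88 and −2.02 in the hybrids and −0.35 and −0.14 in the pools, a change of 1.72 ± 0.52 (SE) that was not called (edgeR adjusted p = 0.497). The ratio of AGA1 moved in the same direction, from −1.55 and −1.74 to −0.28 and −0.45, and was called (1.28 ± 0.24, edgeR adjusted p = 0.066). Both transcripts thus had ratios skewed to S96 in the hybrids and nearer to balance in the pools, but only the change of AGA1 was called. In lanes 6 and 7 alone the cis effect of SUT755 was −0.66 and not called. AXL1 and YGP1 were the other partners called for local trans, and their SUTs were not.

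Opposite a list of 10 genes with well-known antisense transcription lay 5 of the SUTs, and these are given for their levels. None was called in any comparison, a count that the background shares of 1.09% (total), 11.6% (cis) and 0.149% (local trans) do not set apart from other transcripts. SUT013 covers the start of the joint GAL7 and GAL10 transcript, whose genes are silent in glucose medium such as YPD, and had 104 and 339 normalised counts in the hybrids and 370 and 104 in the pools. SUT534 over the start of the meiotic gene ZIP2 had 530 and 234 in the hybrids and 365 and 631 in the pools, and ZIP2 had 163 and 188 against 384 and 114. SUT719, which covers SUR7, a gene of the plasma membrane eisosome domain, was the most even of them, with 6070 and 5055 in the hybrids, 5969 and 3784 in the pools and a cis effect of 0.21 ± 0.18. SUT817 over the end of the ornithine decarboxylase antizyme gene OAZ1 had 485 and 449 against 648 and 225, and SUT320 at the end of the alcohol dehydrogenase gene ADH2 had between 15.9 and 84.6. For SUT013, SUT534, SUT719 and SUT817, replicates differed by more than the group means did.

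A list of 38 genes covered factors that make, terminate or degrade antisense RNA, among them the Nrd1-Nab3-Sen1 complex, the nuclear exosome, the Set2 and Set3 pathways and chromatin remodellers. Of these, 37 were tested and 0 were called by edgeR, which is near the background of 1.09% of all transcripts. XRN1, the remaining gene of the list, was not analysed here. Their log2 changes ranged from −0.52 to 0.46 with a median of −0.11.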

How the data were processed

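As deposited by the authors, RNA values are raw counts of allele-specific read pairs per transcript, allele and lane, made with GSNAP 2013-06-27 and HTSeq 0.5.4p5 on R64 (versions per the submitters' processing notes), with transcripts extended by 50 bp. DNA values are deposited counts of reads per polymorphism and allele. The files do not name the allele of the DNA columns, which was taken from the mapping bias described by the study. The members and gene lists were chosen with earlier results of these data known.

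The 3 lanes were summed and TMM size factors computed in edgeR 4.0.16 (R 4.3.3). They were 0.881, 0.940, 1.17 and 1.01 for hybrids A and B and pools A and B, so levels are relative and say nothing of RNA per genome. Changes between pools and hybrids were tested on summed alleles with a mean of at least 20. Cis and local trans effects came from one quasi-likelihood fit with allele, allele in pools, ploidy and replicate terms, a mean corrected count of at least 10, and allele frequencies of pool A smoothed with locfit 1.5.9.12 (window 28000 bp, at least 10 reads). Fits covered all transcripts, with Benjamini-Hochberg adjustment over all of them. Both fits were tested on simulated data. The study calls replicates A and B biological, the labels do not say how they were separated, and p-values measure only the spread between these libraries. DNA depth was 9749494 reads in pool A and 266380 in pool B. A pseudocount of 1 was used for ratios per library, and counting error alone sets the floor of 3 counts.

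SUTs were named by rule: called changes with a mean of at least 100 and groups apart, the 5 largest called cis effects in each direction with a mean of at least 50 and one direction in 4 libraries, any call for local trans, the 6 highest per kilobase, and those opposite 10 genes with known antisense RNA. Alternatives used DESeq2 1.42.0, limma 3.58.1, other size factors, filters, allele frequencies and overlaps, a replicate block, and each library left out. Separate lanes and chromosome XI left out were added after seeing the data. Tables and figures were made with Python 3.11.15, pandas 2.3.3, numpy 2.4.6 and matplotlib 3.10.9.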

Additional observations from a re-analysis of the deposited data

How the results depend on the processing

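Of the 5 antisense SUTs called between pools and hybrids, SUT612, SUT755, SUT350 and SUT204 stayed called under all 13 alternatives fitted. The count was 12 with DESeq2, 8 with a replicate block and 2 for SUTs with at least 50% of their length in the overlap, and leaving out single libraries gave 7 to 50. For cis effects the 49 calls became 78 with DESeq2, 27 with limma, 30 in lane 8 alone, 29 in lanes 6 and 7 alone, 32 with at least 50% overlap and 1 with the shallow DNA of pool B used for pool B, and 31 to 45 without single libraries. For local trans effects the 0 calls became 3 with DESeq2, 4 with no allele frequency correction, 1 with the replicate block and 0 to 1 without single libraries. The causes were not tested. The only reversal among the 17 results on named SUTs was the cis effect of SUT287, at 0.13 in lane 8 alone. Over all transcripts, replicate letters did not pair the samples (correlation of deviations 0.02 for totals), so the block is given only here. Yet the antisense SUTs were higher in A than in B in both groups (median log2 difference 0.30 and 0.38). So were the antisense CUTs (0.46 and 0.55) and the other SUTs (0.31 and 0.17). The share of pairs outside annotated transcripts was also higher in A (35.8% against 28.4%, and 36.4% against 26.8%). The median change ranged from −0.09 to 0.33 without single libraries. Few polymorphisms per SUT and 2 replicates limit precision.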
